A study of Rattus norvegicus with 24 samples.

Results

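The genes described here are 9 insulin and insulin-like growth factor (IGF) signalling genes of the rat, followed through every group of an RNA-sequencing experiment on INS-1 cells. They are the receptors Igf1r and Insr, the receptor substrates Irs1 and Irs2, the phosphoinositide 3-kinase subunit gene Pik3r1, the kinase gene Akt2, the transcription factor gene Foxo1 and the IGF-binding protein genes Igfbp3 and Igfbp5. They were chosen by symbol, with earlier results of these data known, and all 9 were found among the 26404 genes of the tables. INS-1 cells come from a rat insulinoma, secrete insulin and stand in for pancreatic beta cells in many studies. All cells were first kept for 90 min in medium with 3 mM glucose and then given medium with 11 mM glucose together with the treatment. The treatments were BMS-21, known only by its code name, at 1 µM, GLP-1 (glucagon-like peptide 1, an intestinal hormone that acts on beta cells through a receptor coupled to cyclic AMP) at 100 nM, or the vehicle DMSO (Control). Cells were collected after 6 h or 1 h, with 4 libraries for each of the 6 combinations, 24 in all. The labels name no transgene or deletion in the cells.

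Insulin and IGF-1 bind related tyrosine kinase receptors at the cell surface. An activated receptor phosphorylates IRS proteins, which recruit phosphoinositide 3-kinase through its regulatory subunit, and the lipid that this enzyme makes leads to activation of AKT kinases. AKT phosphorylates FOXO transcription factors, which then leave the nucleus. In beta cells this pathway is known for its role in growth and survival, and Irs2 is a known target of the cyclic AMP-responsive factor CREB there.

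The libraries held 10667350 to 13148970 reads assigned to genes, which puts the floor of 3 reads at 0.228 to 0.281 RPM (reads of a gene per 1000000 reads of the library). This floor covers counting error only. Levels are given below as RPM over a library size scaled by the trimmed mean of M-values, on 1 scale for all 24 libraries, while log2 fold changes at 1 time are limma estimates on the log2(normalised count + 1) scale of the authors' values. All 10 beta-cell markers examined were read in every library, with Ins1 at 8618 to 11711 RPM and Pdx1 at 100.6 to 153 RPM. Of the markers of other cells, Sst and Ppy of the islet, Prss1, Cpa1, Amy2a3 and Krt19 of exocrine and duct cells, and Col1a1, Pdgfrb, Cdh5 and Ptprc of stroma and leukocytes were at most 0.251 RPM in any library, within the range of the floor. Krt7 had 46.1 to 85.5 RPM, Gcg 6.58 to 14.1 RPM and Ghrl 0.97 to 2.39 RPM, and Cd68, Col1a2, Col3a1 and Pecam1 reached 1.24, 0.968, 0.779 and 0.490 RPM. Libraries of replicates 1 and 2 stood apart from those of replicates 3 and 4 on the first principal component (25.9% of the variance, at most -3.87 against at least 3.50), a split for which the labels name no batch. Nothing in the labels ties the replicates to separate cultures, and p-values here speak only to the spread among these libraries, which may be technical. In bulk samples fewer cells with a transcript and less of it per cell cannot be told apart.

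Each agent was set against the same Control libraries at a given time, so the values of the 2 agents are given side by side and are not independent of each other. Because the 9 genes were chosen with earlier results of these data known, their counts beside all genes are a description and not a test. At 6 h BMS-21 changed 6 of the 9 genes, with 4 higher and 2 lower than Control, beside 33.6% of the 12640 genes tested (16.8% higher and 16.8% lower). GLP-1 at 6 h also changed 6 of 9, with 4 higher and 2 lower, beside 31.7% of the 12641 genes tested (16.2% higher and 15.6% lower). At 1 h BMS-21 changed 3 of 9, with 2 higher and 1 lower, beside 5.91% of all genes tested (3.54% higher and 2.37% lower). GLP-1 at 1 h changed 4 of 9, with 3 higher and 1 lower, beside 6.58% (4.17% higher and 2.41% lower). With scaling by library totals in place of the authors' factors, higher calls made up 33.0% of the calls over all genes for BMS-21 at 6 h (50.0% with the authors' factors), 32.9% for GLP-1 at 6 h (51.0%), 46.1% for BMS-21 at 1 h (59.9%) and 47.0% for GLP-1 at 1 h (63.3%), and no call of a member reversed. With BMS-21 at 6 h Igf1r, Irs1, Irs2 and Pik3r1 were above Control and Foxo1 and Igfbp3 below it, and with GLP-1 at 6 h Igf1r, Irs1, Irs2 and Pik3r1 were above Control and Foxo1 and Igfbp3 below it. The median log2 fold change of the 9 genes at 6 h was 0.10 for BMS-21 and 0.05 for GLP-1, against -0.0015 and -0.00065 over all genes tested. The summed level of the 5 exocrine and duct markers, nearly all of it Krt7, was 46.1 to 56.5 RPM with BMS-21 and 54.4 to 61.3 RPM with GLP-1 at 6 h, against 59.0 to 71.5 RPM in Control, and its part in these differences was not tested. All 9 members passed the filter on low values in every comparison. Calls given here come from fits without the replicate number as a block, unless a block is named.

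**Figure D1:**
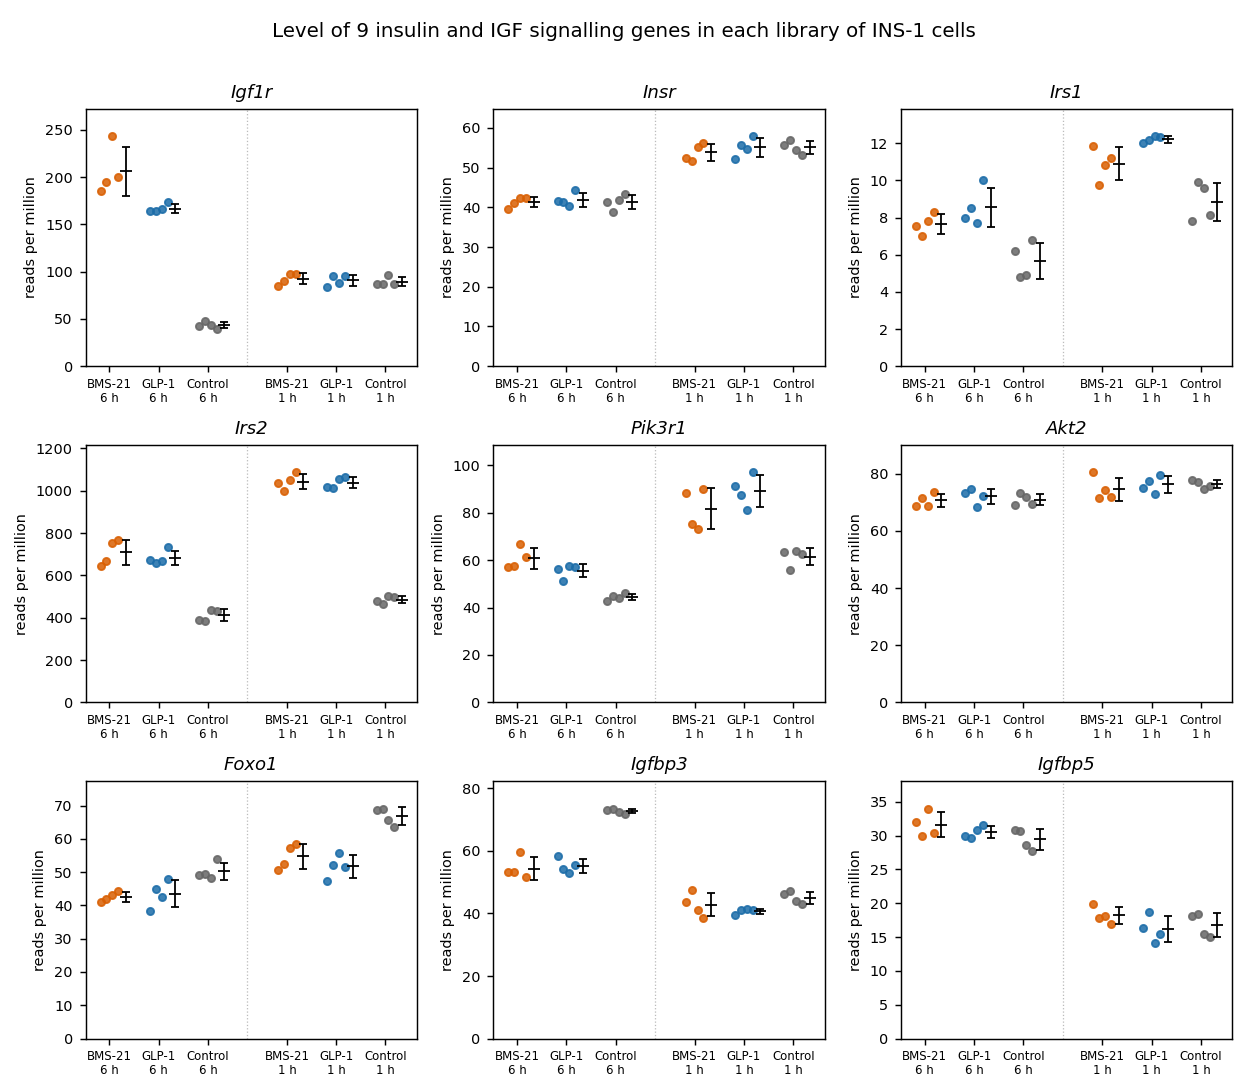
Level of each of the 9 genes in RPM (y axis, from 0) in each library, by group (x axis, with 6 h left of 1 h), where points are libraries and the black bars are the mean ± SD of 4. Igf1r at 6 h stands at 164 to 243 RPM in the treated libraries, against 39.6 to 47.6 RPM in Control, while Insr and Akt2 overlap between treated and Control libraries at each time.

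Igf1r, the receptor with highest affinity for IGF-1, gave the largest fold change of the 9 genes at 6 h. At that time it stood at 185, 195, 243 and 200.3 RPM in the 4 BMS-21 libraries and at 164, 164, 166 and 174 RPM in the 4 GLP-1 libraries, against 42.7, 47.6, 43.1 and 39.6 RPM in Control. No treated library came near a Control library, and every BMS-21 library was above every GLP-1 library. The level was 4.74-fold that of Control with BMS-21 (log2 fold change 2.25 ± 0.08 SE, limma adjusted p = 5.07e-10) and 3.87-fold with GLP-1 (1.95 ± 0.05, limma adjusted p = 4.62e-17). At 1 h the same transcript averaged 92.8 ± 6.14 RPM with BMS-21, 90.8 ± 5.61 RPM with GLP-1 and 89.4 ± 4.70 RPM in Control (SD, n = 4 each), and these groups overlapped. The log2 fold changes at 1 h were 0.06 for BMS-21 (95% interval -0.05 to 0.16) and 0.03 for GLP-1 (-0.07 to 0.13), neither past the threshold. In order of their means, the 6 groups ran from BMS-21 at 6 h through GLP-1 at 6 h and the 3 groups at 1 h to Control at 6 h, and the only neighbours in this order whose libraries overlapped were the 3 groups at 1 h.

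Insr, the insulin receptor gene and the closest relative of Igf1r in the list, showed no such difference. It ranged from 39.7 to 42.5 RPM with BMS-21 at 6 h and from 40.4 to 44.4 RPM with GLP-1 at 6 h, against 38.9 to 43.3 RPM in Control. At 1 h it ranged from 51.7 to 56.2 RPM with BMS-21 and from 52.2 to 57.9 RPM with GLP-1, against 53.3 to 57.1 RPM in Control. Treated and Control libraries overlapped at both times. The 95% intervals of the log2 fold change over Control were -0.11 to 0.11 for BMS-21 and -0.09 to 0.13 for GLP-1 at 6 h, and -0.13 to 0.07 and -0.10 to 0.10 at 1 h.

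The upstream sequences of the pair of receptor genes are shown because their transcripts differed in response while their proteins are close relatives. They are the 250 bases before the transcription start in the RefSeq promoter table for build GRCr8, which is not the build of the read counts (Rnor_5.0). Insr lies at chr12:6128804-6129053 on the minus strand and Igf1r at chr1:130959747-130959996 on the plus strand, both written 5′ to 3′ along the gene. The capitals mark matches to TGACG, the core of the cyclic AMP response element, and to the FOXO element GTAAACA, here read as its reverse complement TGTTTAC.
Insr: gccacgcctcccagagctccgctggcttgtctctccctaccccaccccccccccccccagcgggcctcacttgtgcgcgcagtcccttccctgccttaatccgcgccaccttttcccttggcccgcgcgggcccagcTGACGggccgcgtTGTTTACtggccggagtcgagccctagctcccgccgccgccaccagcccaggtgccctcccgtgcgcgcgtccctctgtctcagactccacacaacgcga
Igf1r: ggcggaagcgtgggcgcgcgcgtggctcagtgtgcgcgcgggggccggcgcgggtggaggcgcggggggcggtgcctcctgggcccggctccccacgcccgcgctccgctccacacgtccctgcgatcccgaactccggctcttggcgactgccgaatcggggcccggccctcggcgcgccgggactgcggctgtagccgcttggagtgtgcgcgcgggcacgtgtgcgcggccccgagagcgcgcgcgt
The TGACG of Insr is at -113 to -109 and the FOXO element at -100 to -94, counted from the transcription start. Of the 8 members with an entry in the table, Insr alone held either motif in the 300 bases searched on both strands, and none held the full element TGACGTCA, which contains TGACG. Over all 27457 promoters of the same length, 22.0% held TGACG, 1.91% the full element and 3.76% the FOXO element. The upstream bases of both receptor genes were rich in G and C (71.2% for Insr and 79.6% for Igf1r, with a median of 52.0% over all promoters). A match is a description of letters and not a site. Irs2 is the member with no entry.

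Irs2, the substrate gene, was higher with both agents at both times. At 6 h it had 646, 668, 754 and 767 RPM with BMS-21 and 671, 658, 666 and 732 RPM with GLP-1, against 387, 386, 438 and 433 RPM in Control. At 1 h it had 1034, 999.6, 1053 and 1087 RPM with BMS-21 and 1019, 1012, 1057 and 1063 RPM with GLP-1, against 480.3, 464, 503 and 496 RPM in Control. At both times every treated library was above every Control library, and the 2 agents overlapped. The level was 1.72-fold that of Control with BMS-21 at 6 h (log2 fold change 0.79 ± 0.06, limma adjusted p = 5.13e-07) and 1.67-fold with GLP-1 (0.74 ± 0.04, limma adjusted p = 1.75e-10). At 1 h it was 2.15-fold with BMS-21 (1.11 ± 0.03, limma adjusted p = 4.31e-17) and 2.14-fold with GLP-1 (1.10 ± 0.03, limma adjusted p = 2.22e-19).

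Irs1, the other substrate gene, rested on 58 to 151 reads per library and had the widest errors. At 6 h it had 7.55, 6.99, 7.82 and 8.29 RPM with BMS-21 and 7.95, 8.54, 7.69 and 10.0 RPM with GLP-1, against 6.18, 4.82, 4.93 and 6.80 RPM in Control. The treated libraries were all above the Control libraries, the nearest by 6.99 against 6.80 RPM. Irs1 was 1.36-fold the Control level with BMS-21 (0.44 ± 0.12, limma adjusted p = 0.0087) and 1.51-fold with GLP-1 (0.59 ± 0.13, limma adjusted p = 0.0011). With replicates 1 and 2 alone the BMS-21 difference was 0.41 with a limma adjusted p of 0.0554, and with replicates 3 and 4 alone it was 0.47 (limma adjusted p = 0.0246).
At 1 h Irs1 had 11.8, 9.74, 10.8 and 11.2 RPM with BMS-21 and 12.0, 12.2, 12.4 and 12.3 RPM with GLP-1, against 7.83, 9.88, 9.58 and 8.12 RPM in Control. The GLP-1 libraries were all above Control, while the lowest BMS-21 library lay within the Control range. The GLP-1 difference of 0.47 ± 0.10 passed the threshold (limma adjusted p = 0.00166). The BMS-21 difference of 0.30 ± 0.10 did not (limma adjusted p = 0.104), but it passed with the replicate number as a block (limma adjusted p = 0.0296).

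Pik3r1 encodes a regulatory subunit that holds the catalytic subunit of phosphoinositide 3-kinase and binds phosphorylated IRS proteins. At 6 h it had 57.3, 57.7, 67.0 and 61.2 RPM with BMS-21 and 56.2, 51.4, 57.4 and 57.3 RPM with GLP-1, against 42.8, 44.9, 44.0 and 46.2 RPM in Control. At 1 h it had 88.2, 75.5, 73.0 and 89.9 RPM with BMS-21 and 91.3, 87.6, 81.1 and 97.1 RPM with GLP-1, against 63.2, 56.1, 63.8 and 62.8 RPM in Control. No treated library overlapped Control at either time. Pik3r1 was 1.37-fold the Control level with BMS-21 at 6 h (0.45 ± 0.05, limma adjusted p = 1.00e-06) and 1.25-fold with GLP-1 (0.32 ± 0.05, limma adjusted p = 3.65e-05). At 1 h it was 1.33-fold with BMS-21 (0.41 ± 0.07, limma adjusted p = 0.000371) and 1.45-fold with GLP-1 (0.54 ± 0.05, limma adjusted p = 6.35e-08).

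Akt2, a kinase gene of the branch through which insulin controls glucose uptake in muscle and fat, did not pass the threshold with either agent at either time. It ranged from 68.3 to 74.5 RPM in the 8 treated libraries at 6 h, against 69.1 to 73.4 RPM in Control, and from 71.3 to 80.5 RPM in the treated libraries at 1 h, against 74.6 to 77.7 RPM in Control. The 95% intervals of the log2 fold change at 6 h were -0.10 to 0.09 for BMS-21 and -0.06 to 0.12 for GLP-1, and at 1 h they were -0.13 to 0.06 and -0.09 to 0.09.

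Foxo1, the FOXO factor gene whose protein AKT keeps out of the nucleus, was lower with both agents at both times. At 6 h it had 41.1, 41.8, 43.2 and 44.4 RPM with BMS-21 and 38.4, 44.9, 42.4 and 48.1 RPM with GLP-1, against 49.2, 49.4, 48.3 and 54.0 RPM in Control. At 1 h it had 50.7, 52.5, 57.3 and 58.5 RPM with BMS-21 and 47.5, 52.2, 55.7 and 51.5 RPM with GLP-1, against 68.8, 69.1, 65.8 and 63.5 RPM in Control. The ranges did not overlap, but at 6 h the highest GLP-1 library and the lowest Control library differed by little (48.1 against 48.3 RPM). The log2 fold changes at 6 h were -0.23 ± 0.05 for BMS-21 (limma adjusted p = 0.00135) and -0.21 ± 0.06 for GLP-1 (limma adjusted p = 0.0130). Those at 1 h were -0.29 ± 0.05 for BMS-21 (limma adjusted p = 0.000823) and -0.37 ± 0.05 for GLP-1 (limma adjusted p = 1.40e-05).
The GLP-1 call at 6 h was lost without Control replicate 4 (-0.17, limma adjusted p = 0.0529), without GLP-1 replicate 1 (-0.15, limma adjusted p = 0.0610) and with replicates 3 and 4 alone (-0.17, limma adjusted p = 0.0677, against -0.24 and 0.00225 with replicates 1 and 2 alone). The BMS-21 call at 1 h was lost with replicates 3 and 4 alone (-0.16, limma adjusted p = 0.262) and was -0.41 with replicates 1 and 2 alone (limma adjusted p = 4.70e-08).

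Igfbp3 encodes the main carrier of IGFs in blood and Igfbp5 another secreted IGF-binding protein. At 6 h Igfbp3 had 53.2, 53.2, 59.6 and 51.6 RPM with BMS-21 and 58.4, 54.3, 52.8 and 55.4 RPM with GLP-1, against 73.1, 73.6, 72.6 and 71.9 RPM in Control. Each treated library lay far below the Control range. The log2 fold change was -0.42 ± 0.05 with BMS-21 (limma adjusted p = 6.82e-07), which puts Control at 1.34-fold the BMS-21 level, and -0.40 ± 0.04 with GLP-1 (limma adjusted p = 6.17e-07).
At 1 h Igfbp3 had 43.7, 47.4, 41.2 and 38.7 RPM with BMS-21 and 39.5, 41.1, 41.4 and 41.0 RPM with GLP-1, against 46.2, 47.1, 43.9 and 42.9 RPM in Control. The BMS-21 libraries overlapped Control, and the GLP-1 libraries lay just below it. The log2 fold change was -0.07 ± 0.06 for BMS-21 (limma adjusted p = 0.670) and -0.14 ± 0.05 for GLP-1 (limma adjusted p = 0.140), and the GLP-1 value passed the threshold with the replicate block (limma adjusted p = 0.0484).
Igfbp5 did not pass the threshold in any comparison with Control. It averaged 31.6 ± 1.85 RPM with BMS-21 and 30.5 ± 0.882 RPM with GLP-1 at 6 h, against 29.5 ± 1.57 RPM in Control (SD, n = 4 each), with 95% intervals of the log2 fold change of -0.03 to 0.23 and -0.07 to 0.18.

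**Figure D2:**
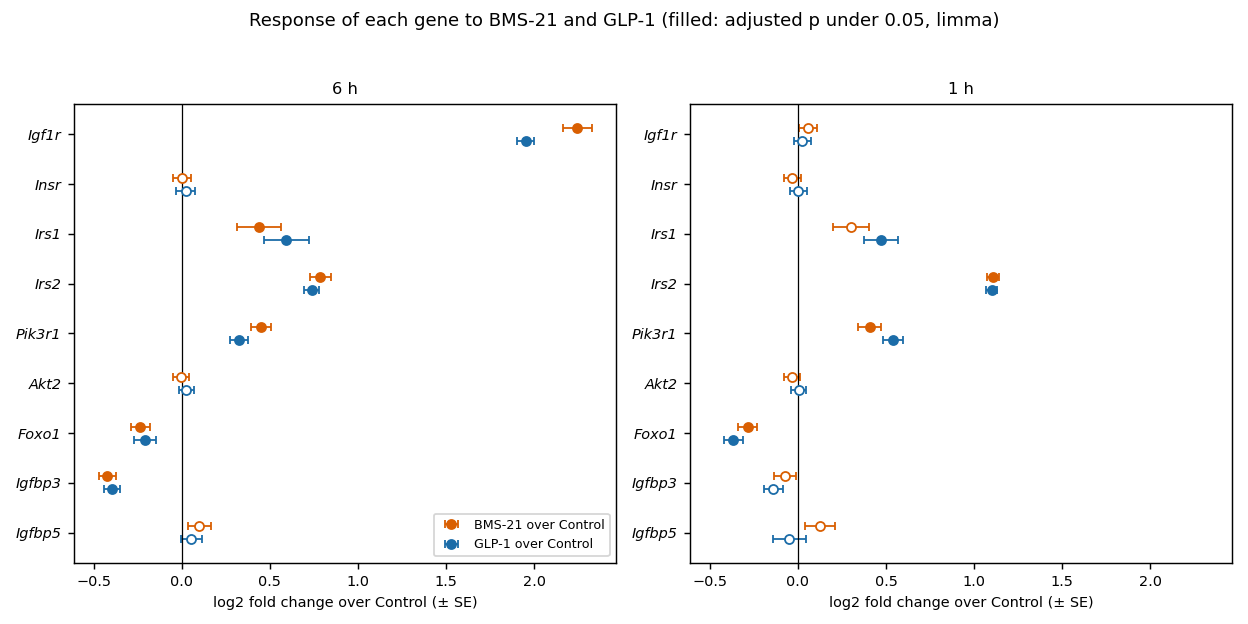
Log2 fold change over Control (x axis, with SE bars) of the 9 genes (y axis) for BMS-21 (orange) and GLP-1 (blue) at 6 h (left) and 1 h (right), with filled points past the limma threshold. Igf1r is at 2.25 and 1.95 at 6 h and at 0.06 and 0.03 at 1 h, while Irs2 and Pik3r1 are above 0 and Foxo1 below 0 at both times.

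BMS-21 and GLP-1 were also set against each other directly, at their own doses of 1 µM and 100 nM, so that dose and agent cannot be told apart. In the fits without the replicate block none of the 9 members passed the threshold at either time. The background was 2 of 12629 genes at 6 h (0.0158%) and 0 of 12672 at 1 h (0%). With the replicate block limma called 217 genes at 6 h, Igf1r among them, and 85 at 1 h, Pik3r1 among them. At an unadjusted p under 0.05 limma gave 800 genes at 6 h, 2 of them members, and 432 genes at 1 h, none of them a member. The edgeR test called no member at either time, and DESeq2 called 1 at 6 h. That member was Igf1r, which was 1.23-fold higher with BMS-21 than with GLP-1 at 6 h (log2 fold change 0.30 ± 0.07, 95% interval 0.15 to 0.44, limma adjusted p = 0.310). Its call depended on the fit: it passed with the replicate block (limma adjusted p = 0.0339, edgeR adjusted p = 0.0435), with DESeq2 (adjusted p = 0.00740) and with replicates 1 and 2 alone (0.22, limma adjusted p = 0.00575). The other member with an unadjusted p under 0.05 was Pik3r1 at 6 h (0.13 ± 0.06, limma adjusted p = 0.745). Pik3r1 at 1 h differed by -0.13 ± 0.07 (limma adjusted p = 1), and by the block fit passed the threshold (limma adjusted p = 0.0440). For Irs2 the 95% interval of the difference was -0.06 to 0.17 at 6 h and -0.06 to 0.07 at 1 h, and for Foxo1 it was -0.15 to 0.11 and -0.04 to 0.20. For Irs1, the least precise of the 9 genes, it was -0.38 to 0.07 at 6 h and -0.35 to 0.01 at 1 h.

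Control cells differed between the 2 times as well. With edgeR on the recovered reads, all 9 members differed between Control at 6 h and Control at 1 h, 7 lower and 2 higher, beside 52.9% of the 13114 genes tested (26.9% lower and 26.0% higher). Igf1r averaged 43.3 ± 3.32 RPM at 6 h and 89.4 ± 4.70 RPM at 1 h (log2 fold change -1.05 ± 0.08, edgeR adjusted p = 1.69e-11). At 6 h the treated libraries, at 164 to 243 RPM, stood above the 86.5 to 96.4 RPM of Control at 1 h, and the Control libraries, at 39.6 to 47.6 RPM, stood below it. Irs1 (-0.64 ± 0.11, edgeR adjusted p = 1.03e-05), Pik3r1 (-0.47 ± 0.07, edgeR adjusted p = 3.78e-07), Insr (-0.42 ± 0.05, edgeR adjusted p = 1.54e-09), Foxo1 (-0.42 ± 0.06, edgeR adjusted p = 6.67e-08) and Irs2 (-0.25 ± 0.05, edgeR adjusted p = 0.000104) were lower at 6 h as well. Akt2 was lower by less (-0.11 ± 0.04, edgeR adjusted p = 0.0275), and its call was lost without Control 6 h replicate 1 or 4 and without Control 1 h replicate 1 or 2 (edgeR adjusted p 0.0543 to 0.0737). The binding protein genes went the other way, with Igfbp3 at 72.8 ± 0.704 RPM at 6 h and 45.0 ± 1.96 RPM at 1 h (0.69 ± 0.05, edgeR adjusted p = 3.42e-14) and Igfbp5 at 29.5 ± 1.57 RPM at 6 h and 16.7 ± 1.76 RPM at 1 h (0.81 ± 0.07, edgeR adjusted p = 9.89e-12). The summed level of the 5 exocrine and duct markers, nearly all of it Krt7, was 59.0 to 71.5 RPM in Control at 6 h and 68.3 to 84.2 RPM in Control at 1 h, and its part in these differences was not tested.

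For 3 genes the response to each agent differed between the times, by a test of the change itself. The response of Igf1r to BMS-21 was larger at 6 h than at 1 h by 2.20 ± 0.10 on the log2 scale (edgeR adjusted p = 2.59e-14) and that to GLP-1 by 1.92 ± 0.10 (edgeR adjusted p = 5.11e-13). The response of Irs2 was smaller at 6 h, with a change of -0.32 ± 0.07 for BMS-21 (edgeR adjusted p = 0.00116) and -0.37 ± 0.07 for GLP-1 (edgeR adjusted p = 0.000282). The response of Igfbp3 was more negative at 6 h, with a change of -0.35 ± 0.07 for BMS-21 (edgeR adjusted p = 0.000555) and -0.26 ± 0.07 for GLP-1 (edgeR adjusted p = 0.0118). These 3 of 9, 1 higher and 2 lower for each agent, stand beside 21.7% of all genes tested for BMS-21 (10.8% higher and 10.9% lower) and 17.3% for GLP-1 (8.3% higher and 9.01% lower). The Igfbp3 change was not called for BMS-21 with replicates 3 and 4 alone (-0.26, edgeR adjusted p = 0.0607), nor for GLP-1 with replicates 1 and 2 alone (-0.17, edgeR adjusted p = 0.204). For Pik3r1 the GLP-1 response changed by -0.22 ± 0.09 (edgeR adjusted p = 0.103), which passed with the replicate block (edgeR adjusted p = 0.0248), and for Foxo1 and Irs1 the change was not past the threshold for either agent.

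**Figure D3:**
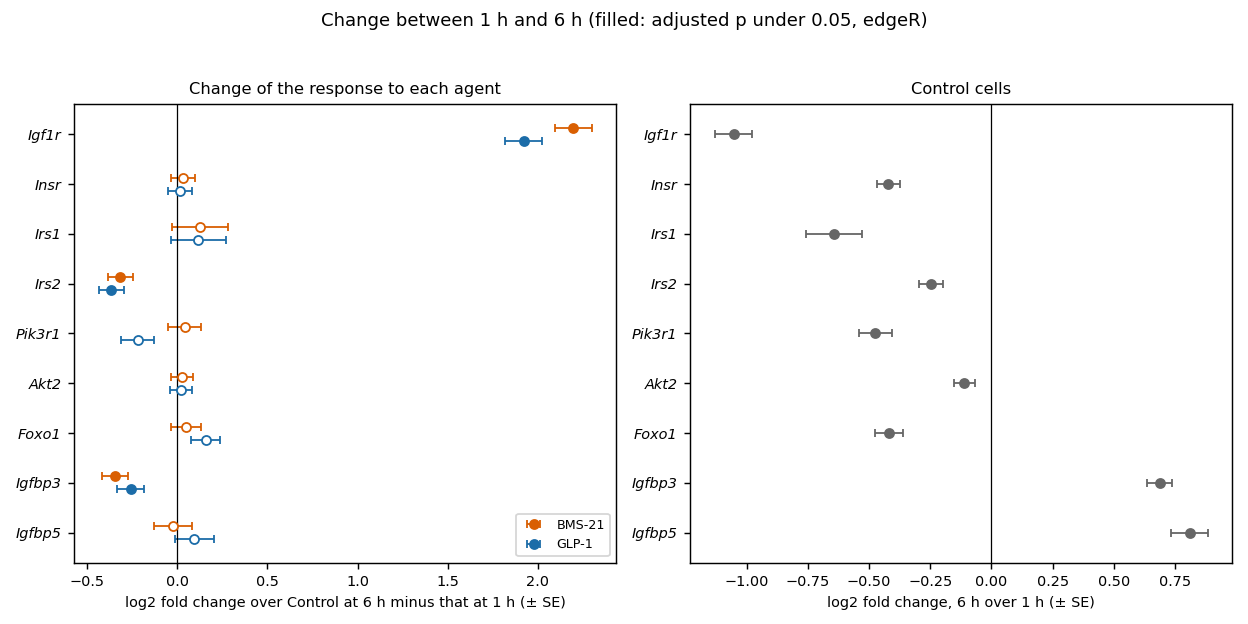
Change of the response between 6 h and 1 h for BMS-21 (orange) and GLP-1 (blue) on the left, and Control at 6 h over Control at 1 h on the right, both as log2 values (x axis, with SE bars) for the 9 genes (y axis), with filled points past the edgeR threshold. In Control 7 genes lie below 0 and Igfbp3 and Igfbp5 above it, while the change of the response is largest for Igf1r, at 2.20 and 1.92.

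Other genes of the pathway were taken from a list of 54, of which 50 were found and 44 could be tested against Control at each time. At 6 h 18 of the 44 differed with BMS-21, 10 higher and 8 lower (40.9%), and 17 with GLP-1, 8 higher and 9 lower (38.6%). Both shares stand beside the 33.6% and 31.7% of all genes given above. At 1 h 3 differed with BMS-21, 1 higher and 2 lower (6.82%, beside 5.91% of all genes), and 2 with GLP-1, both lower (4.55%, beside 6.58%). With the replicate block these counts at 1 h were 7 and 5, when 1551 and 1513 of all genes were called. No gene of the list passed the threshold between BMS-21 and GLP-1 at 6 h or 1 h, and the block fit called 1 and 2.

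Of the 3 ligand genes tested, 1 was higher and 0 lower than Control at 6 h with each agent. Over all genes 16.8% were higher with BMS-21 and 16.2% with GLP-1. Ins2 and Igf2, named after their values were seen, had 0.09 ± 0.15 and -0.07 ± 0.05 with BMS-21 at 6 h (limma adjusted p = 0.719 and 0.366). The called ligand, the rat insulin gene Ins1, was higher at 6 h with BMS-21 (0.29 ± 0.04, limma adjusted p = 2.06e-05) and with GLP-1 (0.25 ± 0.03, limma adjusted p = 1.78e-07). It had 9765, 10374, 11711 and 11155 RPM with BMS-21 and 10489, 10246, 9997 and 10729 RPM with GLP-1, against 8871, 8796, 8774 and 8618 RPM in Control, with no overlap between treated and Control libraries. Its reads may be shared with its near-identical paralog Ins2, so the value is uncertain. At 1 h Ins1 was called with BMS-21 at 0.10 ± 0.03 (limma adjusted p = 0.0321), and edgeR did not call it (adjusted p = 0.0798), nor did limma without any of 6 single libraries (adjusted p 0.0548 to 0.150). Insrr, the insulin receptor-related receptor gene, was lower at 6 h with BMS-21 (-0.55 ± 0.08, limma adjusted p = 1.43e-05) and GLP-1 (-0.60 ± 0.07, limma adjusted p = 6.32e-07), at 21.8 to 28.6 and 22.7 to 26.9 RPM against 35.9 to 42.4 RPM in Control. The receptor family held a gene above Control, a gene below it and Insr with overlapping libraries.

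Of the 7 other substrate and adaptor genes tested, 3 were higher and 2 lower than Control at 6 h with BMS-21, beside 33.6% of all genes. With GLP-1 2 were higher and 2 lower, beside 31.7% of all genes. Sh2b2, an adaptor that binds the insulin receptor, was lower at 6 h, at 18.2, 16.3, 14.8 and 17.9 RPM with BMS-21 and 20.1, 20.4, 16.3 and 19.5 RPM with GLP-1, against 29.7, 30.5, 24.4 and 25.1 RPM in Control. The log2 fold changes were -0.70 ± 0.09 with BMS-21 (limma adjusted p = 1.23e-06) and -0.52 ± 0.09 with GLP-1 (limma adjusted p = 9.66e-05). It was lower at 1 h too, at -0.44 with each agent (limma adjusted p = 0.000984 for BMS-21 and 0.00146 for GLP-1), but not with replicates 3 and 4 alone (limma adjusted p = 0.205 and 0.0818). Gab1 was lower at 6 h (-0.53 ± 0.13 with BMS-21, -0.66 ± 0.11 with GLP-1) while its relative Gab2, also a docking protein gene, was higher (0.39 ± 0.06 and 0.30 ± 0.06), with limma adjusted p between 5.68e-05 and 0.00204. The Gab2 difference with GLP-1 was not called with replicates 3 and 4 alone (0.23, limma adjusted p = 0.0538). Shc1, the adaptor that links receptors to the RAS pathway, was also higher at 6 h (0.24 ± 0.05 with BMS-21 and 0.19 ± 0.04 with GLP-1, limma adjusted p = 0.000403 and 0.00156). The adaptor gene Sh2b1, named after its values were seen, was higher with BMS-21 (0.15 ± 0.05, limma adjusted p = 0.0302) and had 0.11 ± 0.05 with GLP-1 (limma adjusted p = 0.0957), and Grb2 and Sos1 were not past the threshold with either agent.

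Downstream of the kinase, Foxo6, a FOXO factor gene like Foxo1, was lower in every comparison with Control. It had 24.1, 26.1, 28.3 and 28.5 RPM with BMS-21 and 24.3, 30.9, 26.9 and 29.7 RPM with GLP-1 at 6 h, against 42.5, 46.2, 37.6 and 42.7 RPM in Control (log2 fold changes -0.66 ± 0.07 and -0.59 ± 0.07, limma adjusted p = 1.41e-07 and 3.27e-06). At 1 h the log2 fold changes were -0.41 ± 0.08 with BMS-21 and -0.45 ± 0.07 with GLP-1 (limma adjusted p = 0.000968 and 0.000112), and with replicates 3 and 4 alone the BMS-21 difference was -0.27 (limma adjusted p = 0.129). Of the 3 FOXO genes besides Foxo1, 2 were lower at 6 h with BMS-21, beside 16.8% of all genes, and 3 with GLP-1, beside 15.6%, the others being Foxo4 and Foxo3, named after their values were seen. Foxo4 was lower, at -0.39 ± 0.08 and -0.51 ± 0.07 (limma adjusted p = 0.000896 and 1.06e-05), and Foxo3 had -0.08 ± 0.10 with BMS-21 and -0.19 ± 0.07 with GLP-1 (limma adjusted p = 0.556 and 0.0327). In Control cells, by contrast, Foxo6 was higher at 6 h than at 1 h (0.52 ± 0.07, edgeR adjusted p = 2.70e-07) while Foxo1 was lower.

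Rptor, the gene of a subunit that defines the mTORC1 kinase complex, was higher at 6 h with BMS-21 (0.24 ± 0.04, limma adjusted p = 0.000168) and with GLP-1 (0.13 ± 0.04, limma adjusted p = 0.0159). The GLP-1 call was lost without GLP-1 replicate 3 or 4 (limma adjusted p = 0.0503 and 0.0580), with scaling by library totals (limma adjusted p = 0.146) and with replicates 1 and 2 alone (0.06, limma adjusted p = 0.314). Trib3, a pseudokinase that binds AKT, had 21.6, 20.6, 41.0 and 30.1 RPM with BMS-21 and 16.9, 15.2, 33.6 and 22.4 RPM with GLP-1 at 6 h, against 11.7, 9.73, 14.4 and 12.5 RPM in Control. All treated libraries were above Control, and replicates 3 and 4 were the high ones in each group. The difference was 1.18 ± 0.24 with BMS-21 (limma adjusted p = 0.00823) and 0.81 ± 0.26 with GLP-1 (limma adjusted p = 0.0558, and 7.74e-14 with the replicate block). In Control Trib3 was far lower at 6 h than at 1 h (-3.92 ± 0.24, edgeR adjusted p = 4.49e-11). Of the 5 other IGF-binding protein and protease genes tested, 2 were higher than Control at 6 h with BMS-21 and 0 lower. With GLP-1 3 were higher and 0 lower, and over all genes 16.8% and 16.2% were higher. Igfbp4, another IGF-binding protein gene, was higher at 6 h with GLP-1 (0.78 ± 0.13, limma adjusted p = 0.00211). With BMS-21 its difference of 0.84 ± 0.28 did not pass (limma adjusted p = 0.0649). It passed with the block (limma adjusted p = 0.0208) and with DESeq2 (adjusted p = 0.0112). Its libraries were at 65.9, 57.7, 132 and 92.4 RPM for BMS-21, against 44.2, 38.7, 54.6 and 48.4 RPM for Control. Called with BMS-21 were Pappa (0.93 ± 0.23, limma adjusted p = 0.00288) and Igfbp7 (0.14 ± 0.05, limma adjusted p = 0.0168), named after their values were seen.

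**Figure D4:**
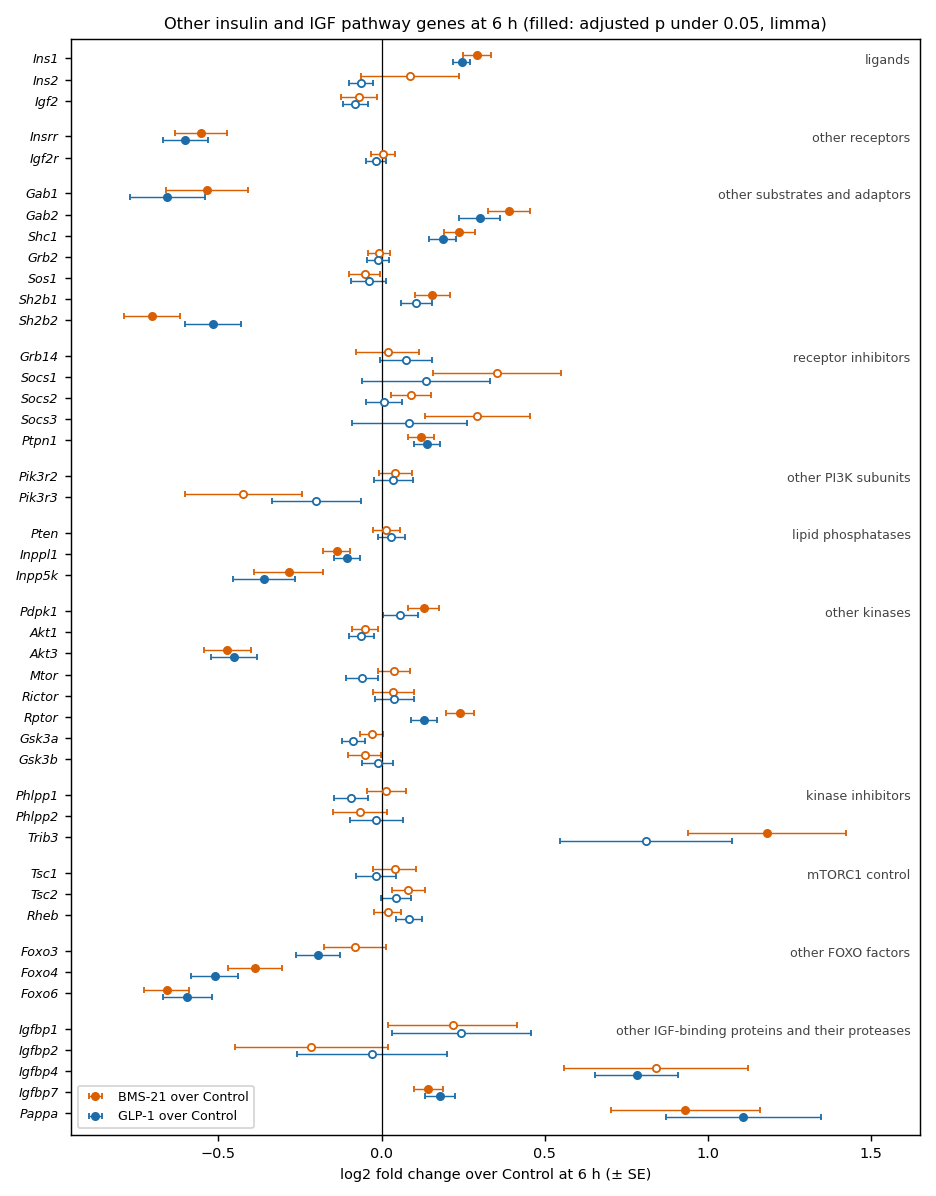
Log2 fold change over Control at 6 h (x axis, with SE bars) of the 44 other pathway genes tested (y axis, grouped by role) for BMS-21 (orange) and GLP-1 (blue), with filled points past the limma threshold. Sh2b2 and Foxo6 lie near -0.70 and -0.66 with BMS-21, and 18 of the BMS-21 and 17 of the GLP-1 points are filled.

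In Control cells 27 of 45 of these genes differed between 6 h and 1 h, 13 higher and 14 lower at 6 h (60.0%, beside 52.9% of all genes). The change of the response between the times passed the threshold for 10 of 45 with BMS-21, 5 higher and 5 lower, and for 8 with GLP-1, 3 higher and 5 lower, beside 21.7% and 17.3% of all genes, and for GLP-1 the replicate block gave 15. Of the 50 genes found, Igf1, Irs3, Grb10, Pik3cd, Igfbp6 and Igfals did not reach the count minimum in the comparisons with Control, and Irs4, Pik3ca, Pik3cb and Pappa2 were not analysed here.

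The transcripts whose levels ran most like those of each member were sought among 9680 genes over the 24 libraries, as a description of libraries that share treatments and times. Igf1r was followed most closely by Pde10a, a cyclic nucleotide phosphodiesterase gene (Pearson r = 0.99), Camk2d (0.97) and Ptprk (0.96). Irs2 was followed by Nedd9, Btg1 and Plk2 (0.98 each), and Insr by Inpp5b (0.98), Lysmd2 and Pycr1 (0.97 each). Pik3r1 was nearest to Diras2 (0.97), Nt5dc3 and B3gnt2 (0.96 each), Foxo1 to P2ry1 (0.94), Klf5 (0.93) and Nek9 (0.91), and Irs1 to Enc1 (0.92), Helz2 and Mapkapk2 (0.91 each). Igfbp3 was nearest to Slc39a6 (0.97), Acly and Psmd11 (0.96 each) and Igfbp5 to Mrpl35, Dock5 and Wbp1l (0.98 each). No gene reached 0.9 with Akt2.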

How the data were processed

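Libraries were made with a kit that does not mark strand, so an overlapping antisense transcript adds to the reads of a gene. Reads were aligned to Rnor_5.0, per the submitters' processing notes, which also name TopHat2 2.0.12, Bowtie2 2.2.3.0, SAMtools 0.1.19.0, Subread, DESeq and DESeq2 1.6.3 without giving their roles. The annotation version is not given in the sources used here. The 6 deposited tables hold 26404 genes each and set 2 groups of the same time side by side (8 libraries). Their values are a signal, the reads of a gene divided by 1 factor for each library by the authors. The authors' own log2 fold changes and p-values stand in the same tables and are not used here. Values were whole multiples of a step in each library (100% of values, tolerance 0.001), and the read counts behind the deposited values, identical in both tables of a library, were recovered from it.

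The 6 comparisons within a time used limma 3.58.1 (trend, robust) in R 4.3.3 on log2(normalised count + 1) of genes with a mean of at least 10. Comparisons across times used edgeR 4.0.16 (quasi-likelihood, TMM, filterByExpr, all 24 libraries) on recovered reads, because the authors' factors were set within a table. The threshold was a Benjamini-Hochberg adjusted p under 0.05 over all genes tested. The limma tests within a time and the edgeR test of the GLP-1 change were first run on simulated data. The edgeR tests of the BMS-21 change and of Control between the times were not. Members, gene lists and tests were chosen with earlier results of these data known. Named besides the 9 members are those other pathway genes that passed with the largest change at a mean of 50 or more, up to 4 each way in each comparison within a time, and for likeness up to 3 genes at Pearson r of at least 0.9.

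Residuals of same-numbered libraries correlated across genes by 0.119 to 0.406 in all 24 pairs within tables, by 0.193 to 0.292 between the Control groups of the 2 times and by 0.162 to 0.337 among the groups of the GLP-1 change. The replicate numbers, given in the titles, were therefore taken to pair the samples there. Within tables the same number gave the highest value except for replicate 1 between BMS-21 and GLP-1 at 6 h (0.203 against 0.214). The margin could be small, as for replicate 4 between BMS-21 and Control at 6 h (0.1191 against 0.1190). The reported fits left this pairing out, and the replicate block entered only as an alternative, under which some calls changed. Among the groups of the BMS-21 change the correlations ran from 0.0803 to 0.367, and pairing was not assumed there. Alternatives were other pseudocounts, filters and scalings, edgeR, DESeq2 1.42.0, the replicate block, replicates 1 and 2 or 3 and 4 alone, and leaving out each library. Promoter sequences are from RefSeq, build GRCr8. Some cell type markers that had been listed are not reported here.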

Additional observations from a re-analysis of the deposited data

Results flagged for a closer look

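Of 54 groups of 4 values (9 members in 6 groups), 3 held a library far from the other 3, where chance flags about 1 in 20 groups. Igf1r had 96.4 RPM in Control 1 h replicate 3, against 86.5 to 87.4 RPM in the other Control libraries of that time. Irs2 had 732 RPM in GLP-1 6 h replicate 4, against 658 to 671 RPM in the others. Pik3r1 had 56.1 RPM in Control 1 h replicate 2, against 62.8 to 63.8 RPM in the others.

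The response differed between 6 h and 1 h, by the edgeR test of the change itself, for 3 members with each agent. The change on the log2 scale was 2.20 with BMS-21 and 1.92 with GLP-1 for Igf1r, -0.32 with BMS-21 and -0.37 with GLP-1 for Irs2, and -0.35 with BMS-21 and -0.26 with GLP-1 for Igfbp3.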

How the results depend on the processing

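No called value of the 9 members reversed under any alternative run. The 81 member results gave 890 values under settings other than leaving out a library, which ended 10 calls and made 13. They gave 792 values with a library left out, which ended 6 calls and made 1. The members called between BMS-21 and GLP-1 went to 1 at 6 h under DESeq2, the replicate block, edgeR with the replicate block and replicates 1 and 2 alone, and to 1 at 1 h under the replicate block in limma and in edgeR, against 0 in the reported fits. Leaving out a library gave 0 to 0 members there, 6 to 6 for BMS-21 at 6 h, 3 to 3 at 1 h, 5 to 6 for GLP-1 at 6 h, 4 to 4 at 1 h, 8 to 9 for Control at 6 h against 1 h, 3 to 3 for the BMS-21 change and 3 to 4 for the GLP-1 change. The fourth gene of the GLP-1 change was Pik3r1, called without GLP-1 1 h replicate 3 (edgeR adjusted p = 0.0433). The Akt2 difference between the Control times was not called by DESeq2 (adjusted p = 0.0606), without the filter (0.0689), with scaling by totals (0.0967), with replicates 1 and 2 alone (0.0648) or 3 and 4 alone (0.169). Igfbp3 with GLP-1 at 1 h was called also with scaling by totals (limma adjusted p = 0.0480). The replicate block also made calls of Irs1 with BMS-21 at 1 h, Igfbp3 with GLP-1 at 1 h and Pik3r1 for the GLP-1 change (adjusted p = 0.0296, 0.0484 and 0.0248) and changed no other call of a member, and under it the calls over all genes were 1551 against 751 for BMS-21 at 1 h, 1513 against 837 for GLP-1 at 1 h, 217 against 2 between BMS-21 and GLP-1 at 6 h and 85 against 0 at 1 h. With edgeR and the block those counts were 1567, 1542, 226 and 86. Between the agents at 6 h DESeq2 called 16 genes, all 24 libraries in 1 fit 14, a mean of at least 50 called 1, replicates 1 and 2 alone 37 and replicates 3 and 4 alone 39, and replicates 3 and 4 alone called 497 genes for BMS-21 at 1 h. Of the other pathway genes, replicates 1 and 2 alone called 5 at 1 h with each agent. Replicates 3 and 4 alone called 1 for BMS-21 at 1 h and 3 for the GLP-1 change. The block called 16 for the BMS-21 change, where the lowest correlation of same-numbered libraries was 0.0803. The causes of these changes were not tested. With 58 to 151 reads per library, depth limits Irs1 most.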
